A study of Mus musculus with 15 samples.

Results

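Chemokine ligands are small secreted or membrane-tethered proteins that direct leukocyte movement, and their genes were followed here in liver tissue that had formed in the kidneys of mice. The set was chosen by symbol: Ccl or Cxcl followed by a number, Cx3cl1 and Xcl1, without Cxcl9 and Cxcl10. A probe was found for 32 of them among the 20141 genes with a probe, and 21 of these passed the filter on dim signals and were tested among 15618 genes. RNA of 15 tissue samples from female FVB/N mice was measured, with 1 array for each sample. Neo-liver (n = 4) was ectopic liver microdissected from kidneys. Host liver (n = 4) and host kidney (n = 4) were the injured liver and the kidney of recipient mice. Control liver (n = 3) came from normal mice aged 20 weeks. All 3 host tissues were collected 250 to 300 days after transplantation, at an age of 48 to 55 weeks, from wild-type mice that had received 2 intraperitoneal doses of monocrotaline, a hepatotoxin, at 70 mg/kg and 2 weeks apart. These mice then received 1000000 hepatocytes of donors carrying a human α1-antitrypsin transgene under the kidney capsule. Control mice differed from the hosts in age as well as in treatment, which cannot be told apart, and the donor or host origin of the cells of a neo-liver was not measured. No label states whether samples were pooled or came from separate animals, so p-values measure the spread between these samples.

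As background, chemokines bind G protein-coupled receptors on leukocytes, and each receptor marks particular cells: Ccr2 monocytes, Cxcr2 neutrophils, Cxcr5 B cells, Ccr7 dendritic cells and naive T cells. Inflammatory chemokines are switched on by signals such as NF-κB, whereas homeostatic ones, such as Cxcl12 and Cxcl13, are made by resting stromal cells. In liver, hepatocytes, Kupffer cells and the sinusoidal lining all make chemokines, and kidney tubules make their own set.

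A level is given as the log2 signal relative to the 75th percentile of the same array. It can be compared between samples for 1 gene and not between genes. Hepatocyte markers, all 10 above background in some samples, summed to 3833 to 5437 times the 75th percentile in neo-liver, 6749 to 9034 in host liver, 7.62 to 9.06 in host kidney and 6329 to 6708 in control liver. Neo-liver also carried kidney epithelium RNA: the median of 37 kidney markers stood at 15.8%, 38.3%, 17.8% and 26.9% of the host kidney signal on its arrays 1 to 4, against -0.0036% to 0.0141% on host liver arrays. Neo-liver and control liver arrays shared a slide, host liver filled parts of 2 others, and host kidney was alone on a slide. Slide and tissue thus cannot be told apart in any comparison with host kidney or host liver. Array numbers matched between the 3 host tissues and are taken as mice. In such bulk RNA, fewer cells of a type and less RNA per cell cannot be told apart.

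Of the 32 chemokine genes, 14 were well above background on all 15 arrays and 4 on none, namely Ccl1, Ccl20, Ccl26 and Cxcl3. Neo-liver had 20 chemokine genes above background on every array, host liver 17, host kidney 19 and control liver 15. The genes above background on no array numbered 6 in neo-liver, 11 in host liver, 6 in host kidney and 13 in control liver. The monocyte attractant Ccl7 was above background on 3 of 4 neo-liver, 3 of 4 host liver, 2 of 4 host kidney and 0 of 3 control liver arrays. The same counts held for the neutrophil attractant Cxcl2. Signals of all kinds also differed in reach, since 56.1% to 60.7% of probes were above background on neo-liver arrays, 46.4% to 51.9% on host liver arrays, 62.5% to 67.7% on host kidney arrays and 53.8% to 55.3% on control liver arrays. Ccl21a, the main Ccr7 ligand of lymphatic vessels, Ccl27b and Cxcl11 were not analysed here.

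**Figure D1:**
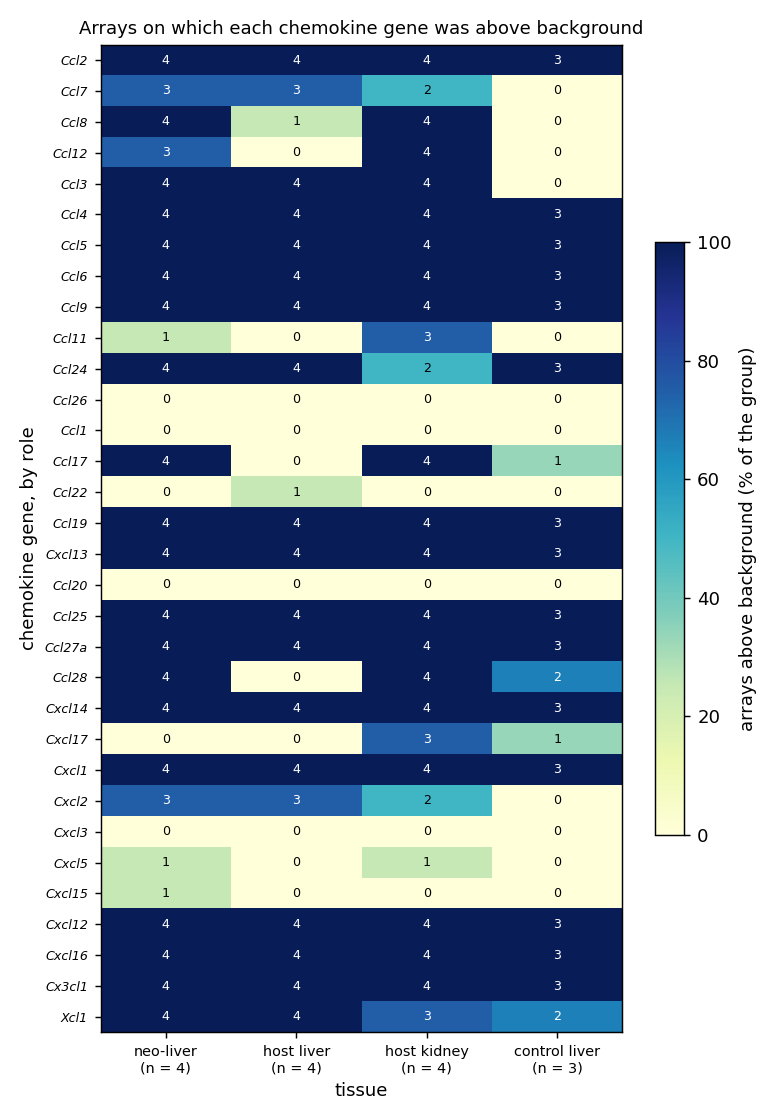
Number of arrays on which each of the 32 chemokine genes was well above background, with genes in rows by role and tissues in columns, coloured by the share of the arrays of the tissue. Ccl8, Ccl12 and Ccl17 were above background on at least 3 neo-liver arrays and on at most 1 array of host liver and 1 of control liver.

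The neutrophil attractants Cxcl1, Cxcl2 and Cxcl3 lie in 1 cluster on chromosome 5, with Cxcl15 between Cxcl3 and Cxcl1, and their promoters are shown because the 3 genes shared a sequence and differed in how often they were above background. The sequences are RefSeq promoters on GRCm38.p6, from 250 bases before the gene start to 50 after it, 5′ to 3′ on the plus strand. Capitals mark the κB core, searched as GGNNTTTCC on both strands. Cxcl1 lies at chr5:90890995-90891294, Cxcl2 at chr5:90903649-90903948 and Cxcl3 at chr5:90785851-90786150, and Cx3cl1, which encodes the tethered chemokine fractalkine and held no match, at chr8:94771930-94772229.
Cxcl1: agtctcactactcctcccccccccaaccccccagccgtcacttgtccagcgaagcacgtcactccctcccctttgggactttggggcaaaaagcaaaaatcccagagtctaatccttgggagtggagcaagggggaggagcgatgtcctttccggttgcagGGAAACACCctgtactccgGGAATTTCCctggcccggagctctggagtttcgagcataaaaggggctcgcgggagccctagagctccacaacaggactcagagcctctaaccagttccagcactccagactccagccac
Cxcl2: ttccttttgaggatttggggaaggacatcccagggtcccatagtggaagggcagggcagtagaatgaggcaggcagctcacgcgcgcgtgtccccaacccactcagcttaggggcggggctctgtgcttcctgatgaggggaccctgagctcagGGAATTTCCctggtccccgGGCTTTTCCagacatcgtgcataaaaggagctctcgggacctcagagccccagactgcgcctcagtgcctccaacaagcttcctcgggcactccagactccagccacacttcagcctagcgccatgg
Cxcl3: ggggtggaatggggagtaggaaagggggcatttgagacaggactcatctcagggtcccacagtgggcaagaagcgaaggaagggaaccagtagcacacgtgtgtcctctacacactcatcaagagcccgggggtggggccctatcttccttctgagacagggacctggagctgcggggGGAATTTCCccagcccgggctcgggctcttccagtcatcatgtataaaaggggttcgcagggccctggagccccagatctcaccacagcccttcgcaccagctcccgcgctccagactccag
Cx3cl1: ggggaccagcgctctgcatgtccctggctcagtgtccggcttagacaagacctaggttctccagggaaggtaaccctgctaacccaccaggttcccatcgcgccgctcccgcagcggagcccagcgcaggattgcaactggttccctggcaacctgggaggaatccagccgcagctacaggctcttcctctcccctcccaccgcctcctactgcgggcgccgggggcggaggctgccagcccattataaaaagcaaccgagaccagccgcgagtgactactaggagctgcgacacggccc
The letters GGAATTTCC stood 70 bases before the start of Cxcl1, 96 before that of Cxcl2 and 72 before that of Cxcl3, counted to their first base. A second match stood 89 bases before the start in Cxcl1 (GGAAACACC) and 77 before it in Cxcl2 (GGCTTTTCC). Cxcl1 was above background on all 15 arrays and Cxcl3 on none. Promoters were available for 22 of the 32 chemokine genes. None was for Ccl2, Ccl4, Ccl5, Ccl7, Ccl11, Ccl24, Ccl26, Cxcl5, Cxcl16 or Cxcl17. A κB core was present in 5 of the 25 promoters of these 22 genes, which is 20%, against 5.82% of all 32851 promoters. The other 2 were those of Ccl9 and Ccl20. The interferon response core AAANNGAAA was in 12% of the chemokine promoters and 10.6% of all, and the AP-1 motif TGANTCA in 12% and 7.81%. A match describes letters in a window and no binding was measured.

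A gene was called when its Benjamini-Hochberg adjusted p over all 15618 genes in limma was under 0.05. In neo-liver against host kidney, 10 of 21 tested chemokine genes were called higher (47.6%) and 4 lower (19%), against 23.2% and 29.4% of all genes. In neo-liver against host liver the counts were 7 higher (33.3%) and 4 lower (19%), against 17.1% and 31% of all genes. In neo-liver against control liver 9 were higher (42.9%) and 4 lower (19%), against 20.4% and 29.7% of all genes. In host liver against control liver 5 were higher (23.8%) and 2 lower (9.52%), against 13.3% and 11.2% of all genes. The median log2 difference of the 21 was 0.50, 0.03, 1.1 and 0.85 in these 4 comparisons in turn, beside -0.09, -0.21, -0.15 and 0.07 over all genes. Groups did not overlap for 11, 9, 14 and 9 of the 21 (52.4%, 42.9%, 66.7% and 42.9%), against 49.4%, 36.3%, 57% and 37.5% of all genes. The filter asked for signals above background on every array of 1 tissue, so genes such as Ccl12, which passed through host kidney alone, enter these counts because they were high there, and nothing is read from the counts about the set. Neo-liver shares its arrays between 3 of the comparisons and control liver between 2.

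**Figure D2:**
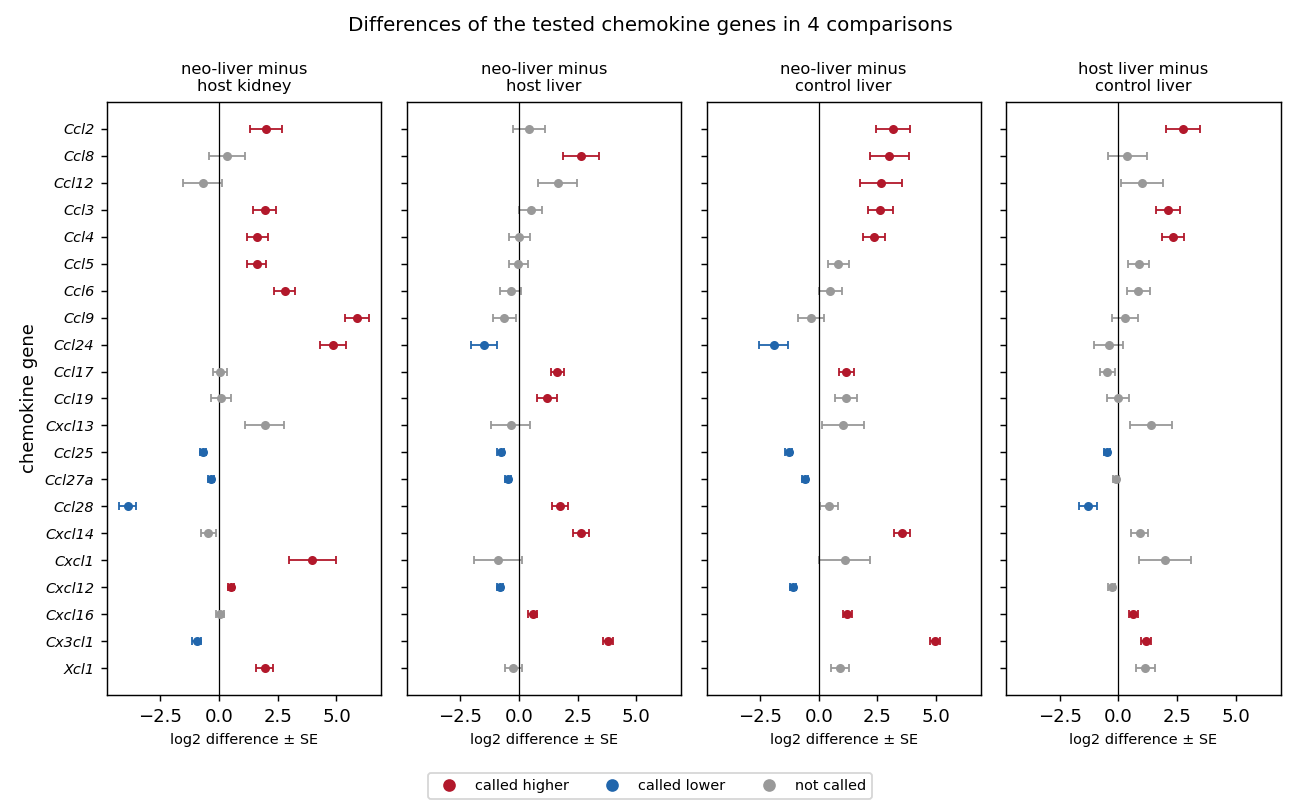
Log2 differences with standard errors (limma) of the 21 tested chemokine genes in the 4 comparisons, with red for called higher, blue for called lower and grey for not called. Cx3cl1 and Cxcl14 stand far to the right where neo-liver is set against host liver and control liver, and Ccl9, Ccl24 and Cxcl1 where it is set against host kidney.

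Ccl2, the chief monocyte attractant and a ligand of Ccr2, was higher in neo-liver and in host liver than in control liver. Its levels were 0.70, -0.08, 1.50 and 2.57 in neo-liver, 0.52, -0.28, 1.67 and 1.07 in host liver, -1.17, -2.21, -0.84 and 0.89 in host kidney, and -2.54, -2.27 and -1.18 in control liver. Every neo-liver and host liver array stood above every control liver array, while neo-liver and host kidney overlapped through host kidney array 4. Neo-liver was 8.99-fold above control liver (log2 3.17 ± 0.73 SE, adjusted p = 0.00277) and 4.01-fold above host kidney (2.00 ± 0.67, adjusted p = 0.023). Host liver was 6.68-fold above control liver (2.74, adjusted p = 0.0161). Neo-liver and host liver differed by 0.43 ± 0.67, which did not pass the test (adjusted p = 0.622). The call against host kidney was lost on leaving out host kidney array 1 (adjusted p = 0.0548) or 2 (0.0775), or array 3 (0.0549) or 4 (0.0752) of neo-liver, and that of host liver without control liver array 1 or 2 (adjusted p = 0.069 and 0.0596).

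Ccl8 and Ccl12, of the same gene cluster on chromosome 11, had another distribution. They were listed here with the monocyte attractants, and which cells they attract was not tested. Ccl8 stood at -0.33, -2.42, -3.63 and 0.54 in neo-liver and at -1.80, -2.22, -2.12 and -1.08 in host kidney. It was above background in host liver on array 2 alone, at -2.83, and on 0 of 3 control liver arrays. Neo-liver was thus at least 7.25-fold above control liver (adjusted p = 0.0082). It was 6.25-fold above host liver (log2 2.64 ± 0.76, adjusted p = 0.012), whose mean takes in the arrays below background. The neo-liver and host liver arrays overlapped, and the call was lost with only the 2 groups in the fit (adjusted p = 0.0578). Neo-liver differed from host kidney by 0.35 ± 0.76 (adjusted p = 0.726). Ccl12 was above background on 3 of 4 neo-liver arrays, at -1.0, -4.46 and -2.90, and on all host kidney arrays, at -1.57, -3.33, -4.28 and -1.36. It was above background on 0 of 4 host liver and 0 of 3 control liver arrays. Neo-liver was at least 2.07-fold above control liver (adjusted p = 0.0254), a call lost on leaving out array 1 or 4 of neo-liver (adjusted p = 0.0646 and 0.056) or array 2 or 3 of control liver (adjusted p = 0.0776 and 0.0748). Against host liver it was at least 1.56-fold higher, which was not called (adjusted p = 0.115), and was with mouse as a random block (adjusted p = 0.0254) or a fixed one (adjusted p = 0.0105), or without neo-liver array 2 (adjusted p = 0.0493).

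With the kidney share of each neo-liver array removed, the calls of Ccl8 in neo-liver against host liver (adjusted p = 0.0835) and control liver (adjusted p = 0.0596) and of Ccl12 against control liver (adjusted p = 0.0515) were lost. With normexp background correction the call of Ccl8 against host liver (adjusted p = 0.0708) and that of Ccl12 against control liver (adjusted p = 0.457) were lost. Of 8 monocyte and dendritic cell markers, 4 were higher and 0 lower in neo-liver than in host liver (all genes 17.1% and 31%). Against control liver 5 were higher and 0 lower (20.4% and 29.7%). Against host kidney 6 were higher and 0 lower (23.2% and 29.4%), where neither Ccl8 nor Ccl12 was called. In host liver 3 were higher and 0 lower than in control liver (13.3% and 11.2%), where again neither gene was called. Summed levels of these markers were 35.1 to 52.9 in neo-liver, 25.6 to 32.3 in host liver, 25.8 to 54.4 in host kidney and 22.5 to 24.3 in control liver. None of the 8 was below background on all arrays, and the part of these cells in the chemokine levels was not tested. Ccl7, which lies between Ccl2 and Ccl11, passed no filter; where it was above background it stood at -2.12, -2.23 and -0.52 in neo-liver, -2.42, -1.73 and -2.28 in host liver, and -3.20 and -2.17 in host kidney.

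**Figure D3:**
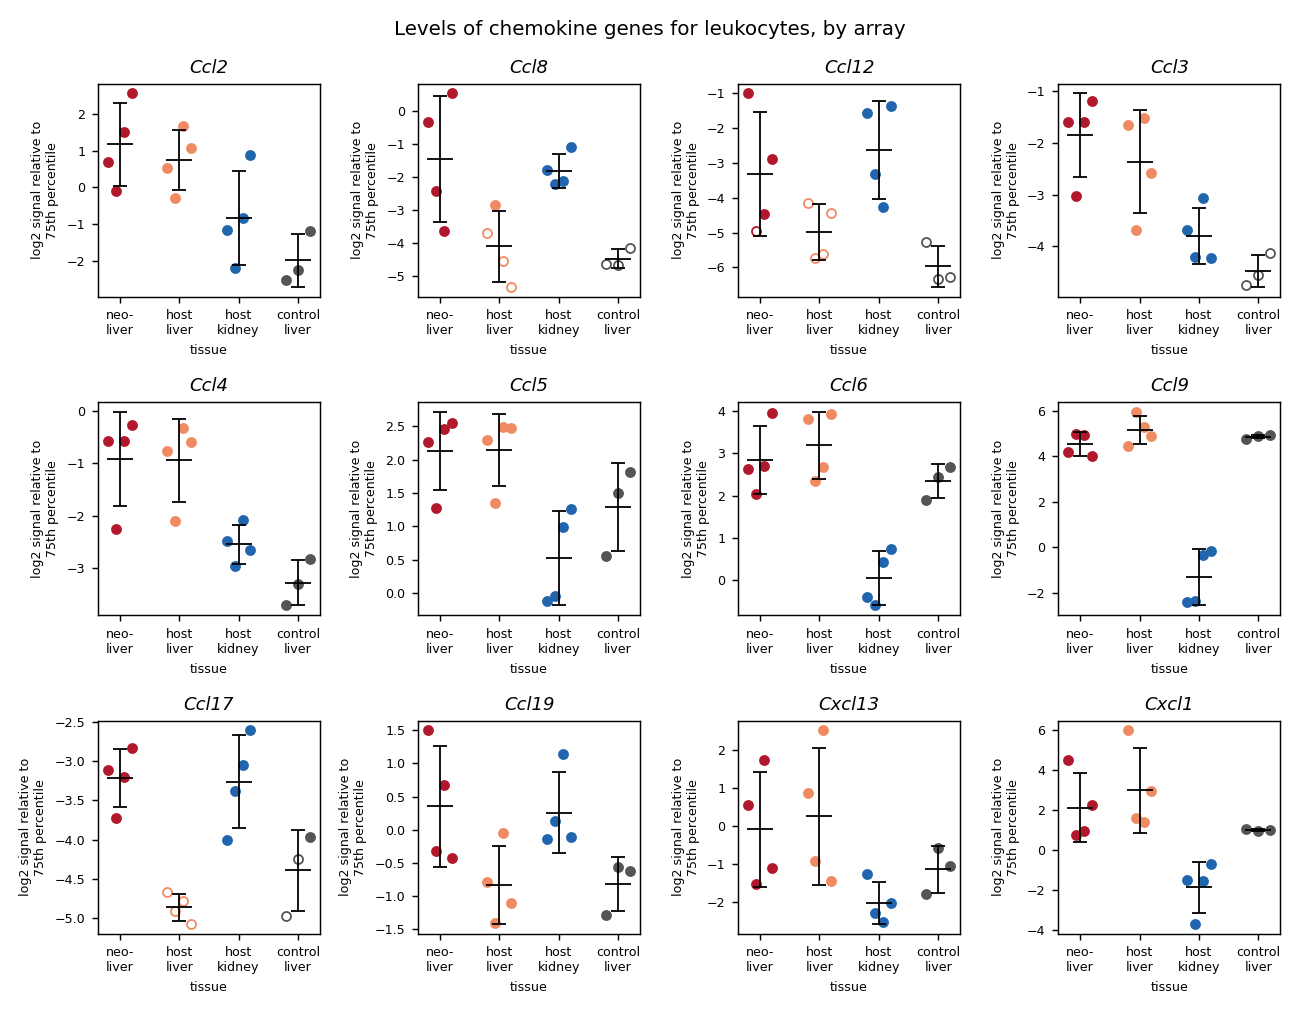
Log2 signal relative to the 75th percentile of the array for 12 chemokine genes, with 1 point per array, filled where above background, and black bars for mean ± SD (n = 4, 4, 4 and 3). For Ccl2, Ccl3 and Ccl4 all neo-liver and host liver arrays lie above all control liver arrays, and for Ccl6 and Ccl9 all host kidney arrays lie below those of the 3 liver groups.

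Ccl3 and Ccl4, made by activated macrophages and lymphocytes, exceeded host kidney and control liver in neo-liver. Ccl3 levels were -1.60, -3.03, -1.59 and -1.18 in neo-liver, -1.65, -3.68, -1.52 and -2.58 in host liver, and -3.69, -4.20, -3.07 and -4.23 in host kidney, and it was above background on 0 of 3 control liver arrays. It was at least 5.53-fold higher in neo-liver (adjusted p = 0.000981) and at least 3.88-fold higher in host liver (adjusted p = 0.0109) than in control liver. Ccl4 levels were -0.58, -2.25, -0.58 and -0.26 in neo-liver, -0.76, -2.10, -0.33 and -0.59 in host liver, -2.48, -2.97, -2.08 and -2.66 in host kidney, and -3.70, -3.29 and -2.83 in control liver. Array 2 was the lowest of neo-liver and of host liver for both genes. Ccl4 was 5.13-fold above control liver in neo-liver (log2 2.36 ± 0.48, adjusted p = 0.00117) and 5.03-fold above it in host liver (2.33, adjusted p = 0.00405). Against host kidney, neo-liver was 3.86-fold higher for Ccl3 (1.95 ± 0.48, adjusted p = 0.00401) and 3.1-fold higher for Ccl4 (1.63 ± 0.44, adjusted p = 0.00723). Neo-liver and host liver differed by 0.51 ± 0.48 for Ccl3 (adjusted p = 0.402) and by 0.03 ± 0.44 for Ccl4 (adjusted p = 0.963), neither of which passed the test.

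Ccl5, which attracts T cells and natural killer cells, and Ccl6 and Ccl9, Ccr1 ligands known from rodents, were higher in neo-liver than in the host kidney. Ccl5 stood at 2.26, 1.28, 2.46 and 2.55 in neo-liver, 2.29, 1.35, 2.49 and 2.47 in host liver, -0.13, -0.04, 0.99 and 1.25 in host kidney, and 0.56, 1.50 and 1.82 in control liver. Ccl6 stood at 2.64, 2.05, 2.71 and 3.96 in neo-liver, 3.82, 2.35, 2.67 and 3.92 in host liver, -0.39, -0.60, 0.44 and 0.73 in host kidney, and 1.90, 2.45 and 2.69 in control liver. Ccl9 stood at 4.19, 4.99, 4.95 and 4.01 in neo-liver, 4.45, 5.95, 5.29 and 4.91 in host liver, -2.41, -2.38, -0.33 and -0.19 in host kidney, and 4.77, 4.90 and 4.92 in control liver. For each of the 3 genes, all neo-liver arrays lay above all host kidney arrays. The neo-liver to host kidney ratio was 3.07-fold for Ccl5 (log2 1.62 ± 0.41, adjusted p = 0.00446), 6.94-fold for Ccl6 (2.79 ± 0.46, adjusted p = 0.000188) and 58.2-fold for Ccl9 (5.86 ± 0.50, adjusted p = 4.95e-07). None of the 3 was called in neo-liver against host liver, or in neo-liver or host liver against control liver; their adjusted p in these comparisons lay between 0.126 for Ccl5 in neo-liver against control liver and 0.978. Ccl5 in neo-liver against control liver was called without neo-liver array 2 (log2 1.13, adjusted p = 0.046).

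Ccl24, an eosinophil attractant and Ccr3 ligand, was also liver-enriched, and it was lower in neo-liver than in the other livers. Its levels were -0.04, -1.0, -1.84 and -0.86 in neo-liver, 1.34, 0.43, 0.50 and -0.03 in host liver, and 0.49, 1.17 and 1.28 in control liver, and it was above background on 2 of 4 host kidney arrays, at -4.53 and -4.98. No neo-liver array reached the lowest host liver or control liver array. Neo-liver was 29.1-fold above host kidney (log2 4.86 ± 0.56, adjusted p = 9.29e-06), a mean that takes in the 2 host kidney arrays below background, 2.81-fold below host liver (-1.49 ± 0.56, adjusted p = 0.0423) and 3.77-fold below control liver (-1.91 ± 0.61, adjusted p = 0.0183). The call against host liver was lost with mouse as a fixed block (adjusted p = 0.0831), with slide as a random block (adjusted p = 0.0548) and with the kidney share removed (-1.09, adjusted p = 0.14). It was lost as well without host liver array 1, 2 or 3 (adjusted p = 0.108, 0.0636 and 0.07) or neo-liver array 2, 3 or 4 (adjusted p = 0.0762, 0.115 and 0.0702). The call against control liver was lost with the kidney share removed (-1.51, adjusted p = 0.0598) and on leaving out array 2 or 3 of control liver (adjusted p = 0.0574 and 0.0623) or array 3 of neo-liver (adjusted p = 0.051). Kupffer cell and macrophage markers had summed levels of 130 to 207 in neo-liver, 209 to 375 in host liver, 37 to 40.8 in host kidney and 145 to 246 in control liver. Of 10 tested, neo-liver had 0 higher and 3 lower than host liver (all genes 17.1% and 31%). Against control liver, where Ccl24 was called lower, it had 0 higher and 0 lower (20.4% and 29.7%). Against host kidney it had 9 higher and 0 lower (23.2% and 29.4%). The part of these markers in the Ccl24, Ccl6 and Ccl9 levels was not tested. Ccl11, another Ccr3 ligand, was above background on 1 neo-liver array, at -1.65, and on 3 host kidney arrays, at -3.90, -4.51 and -5.15.

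Ccl17, a Ccr4 ligand that attracts T cells, was near background. It stood at -3.11, -3.72, -3.20 and -2.84 in neo-liver, at -4.01, -3.38, -3.05 and -2.61 in host kidney, and at -3.96 on the 1 control liver array where it was above background. It was above background on 0 of 4 host liver arrays, and neo-liver was at least 1.69-fold higher than these (adjusted p = 0.0005) and 2.26-fold higher than control liver (log2 1.17 ± 0.31, adjusted p = 0.00677). It differed from host kidney by 0.04 ± 0.29 (adjusted p = 0.912). With normexp background correction neither the host liver nor the control liver call held (adjusted p = 0.367 and 0.455). Ccl22, which shares Ccr4, was above background on 1 host liver array, at -2.27.

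Ccl19 and Cxcl13 guide cells within lymphoid organs, Ccl19 through Ccr7 and Cxcl13 through Cxcr5. Ccl19 stood at 1.50, -0.33, 0.67 and -0.43 in neo-liver, -0.78, -1.40, -0.04 and -1.11 in host liver, -0.15, 0.13, 1.15 and -0.10 in host kidney, and -1.28, -0.56 and -0.62 in control liver. Neo-liver was 2.28-fold above host liver (log2 1.19 ± 0.44, adjusted p = 0.0378), although the groups overlapped. That call was lost on leaving out array 1 or 3 of neo-liver (adjusted p = 0.116 and 0.0837) or host liver array 1, 2 or 4 (adjusted p = 0.0588, 0.0979 and 0.0827), and with the kidney share removed (0.95, adjusted p = 0.171). The difference from control liver, 1.17 ± 0.47, was not called (adjusted p = 0.0527), and was with mouse as a random block (adjusted p = 0.0478), without neo-liver array 2 or 4 (adjusted p = 0.0324 and 0.0276) and with a stricter filter (adjusted p = 0.0496). Other, dimmer Ccl19 probes put neo-liver only 0.28 and 0.29 above control liver, and 0.99 and 0.58 above host liver. The annotation lists Ccl19 pseudogenes on chromosome 4 and near copies of Ccl27a, so which copy a probe reads is uncertain for these 2 genes.

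Cxcl13 varied within neo-liver and host liver. It stood at 0.53, -1.55, 1.73 and -1.1 in neo-liver, 0.85, -0.93, 2.51 and -1.46 in host liver, -1.28, -2.31, -2.53 and -2.03 in host kidney, and -1.80, -0.58 and -1.06 in control liver. Arrays 3 and 1 were the highest in neo-liver and in host liver, whereas array 3 was the lowest in host kidney. Neo-liver stood 1.94 ± 0.83 above host kidney, a difference that was not called (adjusted p = 0.0649), and was with mouse as a random block (adjusted p = 0.0197), as a fixed block (adjusted p = 0.0298), with the kidney share removed (2.17, adjusted p = 0.0396) and without neo-liver array 2 (2.43, adjusted p = 0.0315). Its receptor gene Cxcr5 was above background on 4 of 4 neo-liver, 3 of 4 host liver, 0 of 4 host kidney and 0 of 3 control liver arrays. Of 6 tested B cell and follicle markers, 3 were higher and 1 lower in neo-liver than in control liver (all genes 20.4% and 29.7%), and 1 listed marker was below background on all arrays. The summed levels of these markers were 4.3 to 5.44 in neo-liver, 4.69 to 6.1 in host liver, 3 to 3.31 in host kidney and 4.66 to 5.23 in control liver.

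Among chemokines of epithelia, Ccl25, a Ccr9 ligand known from thymus and small intestine, and Ccl27a, a Ccr10 ligand known from skin, were lower in neo-liver than in every other tissue. Ccl25 stood at 0.05, -0.17, -0.33 and -0.10 in neo-liver, 0.96, 0.70, 0.47 and 0.42 in host liver, 0.67, 0.46, 0.39 and 0.57 in host kidney, and 1.23, 1.15 and 1.01 in control liver. Every neo-liver array lay below every other array. Neo-liver was 1.71-fold below host liver (log2 -0.78 ± 0.13, adjusted p = 0.000343), 1.58-fold below host kidney (-0.66 ± 0.13, adjusted p = 0.000802) and 2.41-fold below control liver (-1.27 ± 0.14, adjusted p = 8.61e-06). Host liver was 1.41-fold below control liver (-0.49, adjusted p = 0.0219), a call lost without control liver array 1 or 2 (adjusted p = 0.0903 and 0.0707) or host liver array 3 or 4 (adjusted p = 0.0555 and 0.06). A second, dimmer Ccl25 probe stood at 1.94 on host liver array 2 and between -5.19 and -3.26 on all others; with the mean of both probes none of these 4 Ccl25 differences was called (adjusted p = 0.0529, 0.631, 0.0901 and 0.916).

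Ccl27a stood at 1.89, 2.01, 1.87 and 1.70 in neo-liver, 2.40, 2.49, 2.25 and 2.20 in host liver, 2.26, 2.18, 2.43 and 1.99 in host kidney, and 2.29, 2.50 and 2.55 in control liver. Neo-liver was 1.38-fold below host liver (log2 -0.47 ± 0.12, adjusted p = 0.00541), 1.27-fold below host kidney (-0.35 ± 0.12, adjusted p = 0.0231) and 1.5-fold below control liver (-0.58 ± 0.13, adjusted p = 0.00182). The kidney call was lost on leaving out array 1 or 3 of host kidney (adjusted p = 0.051 and 0.0743) or array 4 of neo-liver (adjusted p = 0.0706), and the host liver call with quantile normalization (-0.26, adjusted p = 0.101). Another, dimmer probe was higher in neo-liver than in control liver, by 0.36, and in host liver than in control liver, by 0.84. With the mean of the probes the control liver difference was -0.26 (adjusted p = 0.0716).

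Ccl28, a mucosal chemokine and Ccr10 ligand, was highest in host kidney and low in neo-liver. It stood at -3.27, -4.12, -4.0 and -2.91 in neo-liver, at 0.98, -0.60, 0.30 and 0.57 in host kidney, and at -3.63 and -3.85 on the 2 control liver arrays where it was above background, and it was above background on 0 of 4 host liver arrays. Neo-liver was 14.8-fold below host kidney (log2 -3.89 ± 0.35, adjusted p = 7.97e-07) and at least 1.32-fold above host liver (adjusted p = 0.00125). The Ccl28 signal of neo-liver was 7.76%, 4.29%, 4.68% and 9.96% of its host kidney mean, below its kidney share on all 4 arrays. That share, a median over markers, was thus larger than the whole Ccl28 signal of neo-liver. Removing it would leave no signal and gives no measure for this gene. How much of the Ccl28 signal came from kidney tissue was not tested. With normexp background correction the call against host liver was lost (adjusted p = 0.978). Host liver was called below control liver (adjusted p = 0.0241); no fold is given because host liver was below background, and the call was lost without control liver array 1 or 3 or host liver array 4 (adjusted p = 0.105, 0.0813 and 0.0524), and with normexp (adjusted p = 0.798).

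**Figure D4:**
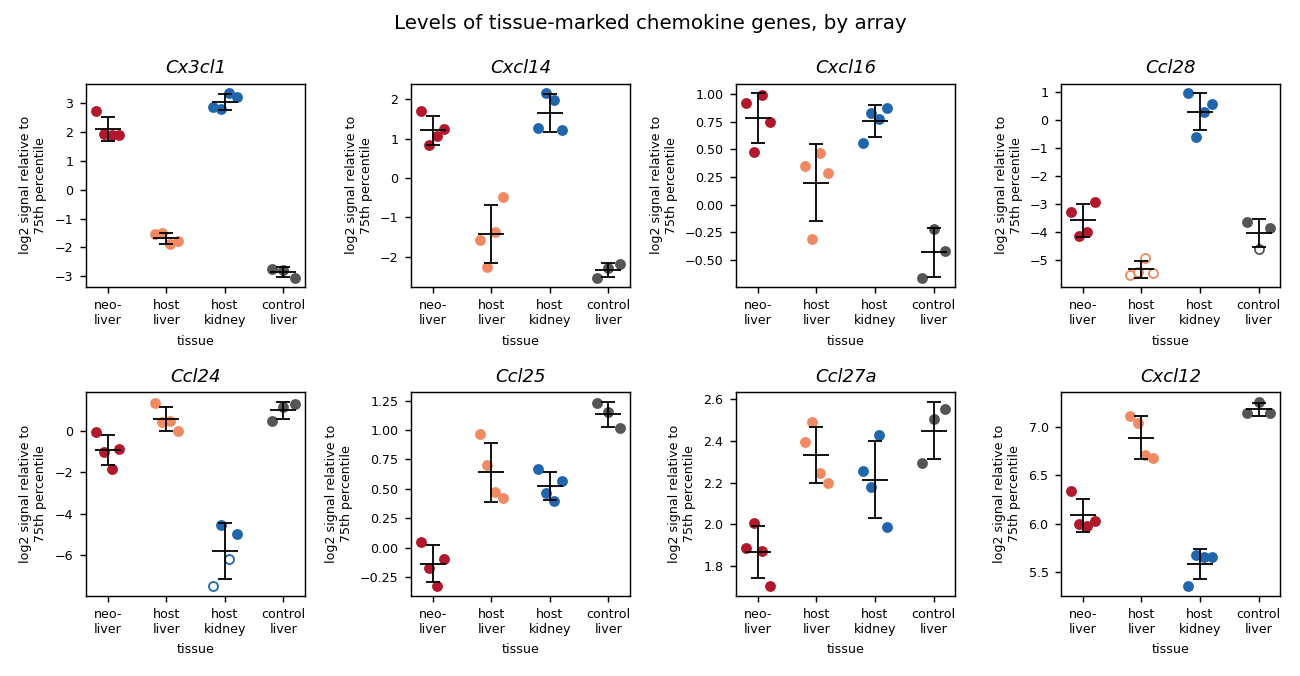
Log2 signal relative to the 75th percentile of the array for 8 chemokine genes, with 1 point per array, filled where above background, and black bars for mean ± SD (n = 4, 4, 4 and 3). Cx3cl1 and Cxcl14 in neo-liver lie near host kidney and above both other livers, whereas Ccl28 in neo-liver lies far below host kidney.

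Cxcl14, a chemokine of resting epithelium, and the tethered chemokines Cx3cl1 and Cxcl16 reached higher levels in neo-liver than in either of the other livers. Cx3cl1, the ligand of Cx3cr1 on monocytes and tissue macrophages, stood at 2.72, 1.93, 1.90 and 1.91 in neo-liver, -1.55, -1.51, -1.88 and -1.79 in host liver, 2.86, 2.79, 3.36 and 3.21 in host kidney, and -2.74, -2.77 and -3.04 in control liver. The 4 groups did not overlap. Neo-liver was 13.9-fold above host liver (log2 3.80 ± 0.19, adjusted p = 5.58e-09), 31.2-fold above control liver (4.96 ± 0.21, adjusted p = 8.5e-10) and 1.92-fold below host kidney (-0.94 ± 0.19, adjusted p = 0.00109). Host liver was 2.25-fold above control liver (1.17 ± 0.21, adjusted p = 0.00184).

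Cxcl14 stood at 1.70, 0.85, 1.06 and 1.24 in neo-liver, -1.58, -2.27, -1.38 and -0.49 in host liver, 1.27, 2.16, 1.99 and 1.23 in host kidney, and -2.53, -2.28 and -2.20 in control liver. Neo-liver was 6.24-fold above host liver (log2 2.64 ± 0.33, adjusted p = 3.35e-05) and 11.7-fold above control liver (3.55 ± 0.36, adjusted p = 3.65e-06), and differed from host kidney by -0.45 ± 0.33 (adjusted p = 0.268). Cxcl16, the ligand of Cxcr6 on T cells and natural killer T cells, stood at 0.92, 0.48, 0.99 and 0.74 in neo-liver, 0.35, -0.31, 0.47 and 0.28 in host liver, 0.55, 0.83, 0.77 and 0.87 in host kidney, and -0.66, -0.22 and -0.42 in control liver. Neo-liver was 1.5-fold above host liver (0.58 ± 0.17, adjusted p = 0.0137) and 2.32-fold above control liver (1.21 ± 0.19, adjusted p = 0.000145). Host liver was 1.55-fold above control liver (0.63 ± 0.19, adjusted p = 0.0267), a call lost without host liver array 1, 3 or 4 (adjusted p = 0.0543, 0.0687 and 0.0598) or control liver array 1 or 3 (adjusted p = 0.122 and 0.0705).

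These genes are high in kidney, and kidney RNA was present in neo-liver. Cx3cl1 in neo-liver stood at 78.0%, 45.2%, 44.1% and 44.5% of the mean host kidney signal, Cxcl14 at 98.2%, 54.4%, 63.2% and 71.6%, and Cxcl16 at 112%, 82.2%, 117% and 98.8%, each above the kidney share of its array on all 4 arrays. This does not set them apart, since most chemokine genes stood above it on all 4, even Ccl1, Ccl20, Ccl26 and Cxcl3, which were above background on no array. With that share removed, Cx3cl1 remained 2.93 above host liver (adjusted p = 0.000251) and 4.10 above control liver (adjusted p = 2.35e-05). Cxcl14 was then 2.27 above host liver (adjusted p = 0.00128) and 3.18 above control liver (adjusted p = 0.000138). Cxcl16 was 0.55 above host liver (adjusted p = 0.0405) and 1.18 above control liver (adjusted p = 0.00077). The share is a median over markers of several tubule segments, so a gene of 1 segment can hold another share, which was not tested.

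Cxcl1, the neutrophil attractant whose promoter is printed above, varied between mice in neo-liver and host liver and little between control livers. It stood at 4.52, 0.73, 0.97 and 2.23 in neo-liver, 5.99, 1.62, 1.40 and 2.93 in host liver, -1.50, -3.70, -1.57 and -0.70 in host kidney, and 1.06, 0.97 and 0.99 in control liver. Array 1 and then array 4 were the highest in neo-liver and in host liver. Neo-liver was 15.8-fold above host kidney (log2 3.98 ± 1.02, adjusted p = 0.00497). No other difference was called: neo-liver against host liver gave -0.87 ± 1.02 (adjusted p = 0.502), neo-liver against control liver 1.1 ± 1.1 (adjusted p = 0.424), and host liver against control liver 1.97 ± 1.1 (adjusted p = 0.208), although every host liver array lay above every control liver array. Summed neutrophil markers were 600, 146, 173 and 203 in neo-liver and 330, 156, 160 and 198 in host liver, in array order, with 126 to 151 in host kidney and 155 to 171 in control liver. Arrays 1 and 4 were thus the highest for these markers too. Of 6 such markers, 5 were higher and 0 lower in neo-liver than in control liver (all genes 20.4% and 29.7%), with a median log2 difference of 4.79. The sums, in which the brightest markers weigh most, overlapped between these tissues. The part of these markers in the Cxcl1 level was not tested.

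Cxcl2, where above background, stood at -4.21, -3.07 and -3.11 in neo-liver, -3.23, -3.39 and -3.44 in host liver, and -5.07 and -4.90 in host kidney. Array 2 was below background in both neo-liver and host liver. Cxcl5 was above background on 1 neo-liver and 1 host kidney array, at -3.74 and -5.67, and Cxcl15 on 1 neo-liver array, at -4.28. Cxcl17, an attractant of mucosal tissue, was above background on 3 host kidney arrays and 1 control liver array, at -5.56, -4.99 and -5.36 in host kidney and -3.91 in control liver.

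Cxcl12, a stromal chemokine that holds blood progenitors in place through Cxcr4, was higher in liver tissue than in kidney. It stood at 6.34, 6.00, 5.98 and 6.03 in neo-liver, 7.11, 7.04, 6.71 and 6.68 in host liver, 5.36, 5.68, 5.66 and 5.66 in host kidney, and 7.14, 7.26 and 7.15 in control liver. Neo-liver lay between the livers and the kidney with no overlap. It was 1.74-fold below host liver (log2 -0.80 ± 0.13, adjusted p = 0.000254), 2.14-fold below control liver (-1.1 ± 0.14, adjusted p = 2.84e-05) and 1.41-fold above host kidney (0.50 ± 0.13, adjusted p = 0.0051). With quantile normalization the difference was -0.27 from host liver (adjusted p = 0.123) and 0.22 from host kidney (adjusted p = 0.163), neither called. A dimmer probe annotated to another transcript differed from host liver by -0.01. With the kidney share removed, Cxcl12 differed from host liver by -0.67 (adjusted p = 0.00203).

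Xcl1, made by activated T cells and natural killer cells, stood at -3.15, -4.30, -3.88 and -2.96 in neo-liver and -3.20, -3.02, -3.42 and -3.69 in host liver, at -5.49, -5.12 and -5.17 on the 3 host kidney arrays above background, and at -3.93 and -4.14 on 2 control liver arrays. Neo-liver was 3.84-fold above host kidney (log2 1.94 ± 0.37, adjusted p = 0.000613). It was not called against control liver (0.90 ± 0.40, adjusted p = 0.0738), and was without neo-liver array 2 (1.14, adjusted p = 0.0307) or control liver array 2 (1.18, adjusted p = 0.0469) and with the kidney share removed (1.20, adjusted p = 0.0255). Host liver stood 1.14 above control liver (adjusted p = 0.0514), not called, and was with quantile normalization (adjusted p = 0.0299), median centring (adjusted p = 0.0248), a stricter filter (adjusted p = 0.0477) and without control liver array 2 (adjusted p = 0.0486). T and NK cell markers were summed at 8.45 to 14.4 in neo-liver, 11.6 to 15.2 in host liver, 6.01 to 7.49 in host kidney and 10.6 to 13.3 in control liver. Of 11 tested, 7 were higher and 0 lower in neo-liver than in host kidney (all genes 23.2% and 29.4%). Against host liver 0 were higher and 1 lower (17.1% and 31%), and against control liver 1 was higher and 2 lower (20.4% and 29.7%). In host liver 1 was higher and 0 lower than in control liver (13.3% and 11.2%).

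Sample numbers were also compared between tissues. In 10 of 21 genes the highest neo-liver array and the highest host liver array had the same number (47.6%), against 53.4% of all genes, so this was no more frequent in the chemokine set. The same held for 28.6% of the chemokine genes between neo-liver and host kidney, against 42.2% of all genes, and for 23.8% between host liver and host kidney, against 37.4%. After the values were seen, the number of the lowest array was also counted. It was the same in neo-liver and host liver for 10 of 21 chemokine genes (47.6%), against 53.7% of all genes. Number 2 was the lowest in both for 8 of 21 (38.1%), Ccl2, Ccl3, Ccl4, Ccl5, Ccl6, Ccl12, Cxcl14 and Cxcl16, against 13.1% of all genes. Number 1 was the lowest in both for 0 of 21, against 21.5%. Numbers 3 and 4 were for 1 gene each (4.76%), against 11.6% and 7.47%. The untested Ccl7 and Cxcl2 were below background on array 2 of both tissues and above it on the other 3 of each. Summed pan-leukocyte markers on array 2 were 10.6 in neo-liver, where the other arrays held 17.7 to 27.4, and 10.2 in host liver, where the others held 14.3 to 17.1. Neo-liver array 2 also had the highest kidney share, whereas host liver array 2 had 0.0141%. The part of either in the low levels was not tested.

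**Figure D5:**
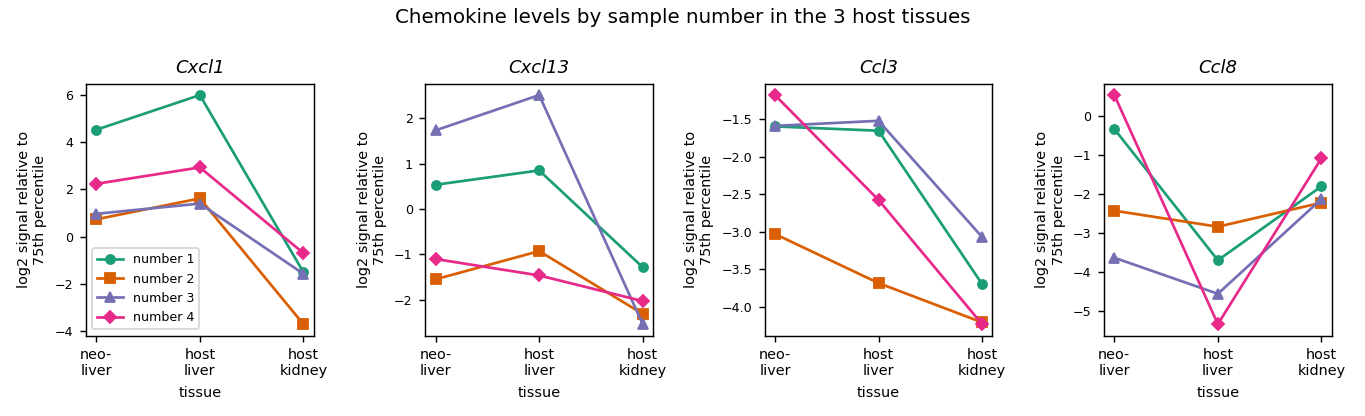
Log2 signal relative to the 75th percentile of the array for 4 chemokine genes in neo-liver, host liver and host kidney, with lines joining arrays of the same number. Cxcl1 is highest in number 1 and Cxcl13 in number 3 in both neo-liver and host liver, Ccl3 is lowest in number 2 in both, and Ccl8 in number 4 is 0.54 in neo-liver and below background in host liver.

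Of 18 chemokine receptor genes, 14 were tested. In neo-liver 7 were higher and 0 lower than in host kidney (all genes 23.2% and 29.4%), 2 higher and 1 lower than in host liver (17.1% and 31%), and 6 higher and 0 lower than in control liver (20.4% and 29.7%). In host liver 5 were higher and 0 lower than in control liver (13.3% and 11.2%). Cx3cr1, the receptor of Cx3cl1, averaged 1.1 ± 0.54 in neo-liver, -1.28 ± 0.45 in host liver, 0.47 ± 0.52 in host kidney and -3.42 ± 0.14 in control liver (SD, n = 4, 4, 4 and 3). Its log2 difference was 2.38 in neo-liver against host liver (adjusted p = 3.99e-05), 4.52 in neo-liver against control liver (adjusted p = 1.76e-07) and 2.14 in host liver against control liver (adjusted p = 0.000703). Cx3cl1 and its receptor gene had the same order of livers, neo-liver, host liver and control liver. That order did not extend to host kidney, where Cx3cl1 averaged 3.06 against 2.11 in neo-liver, and Cx3cr1 averaged lower than in neo-liver. Ccr2, the receptor of Ccl2, exceeded host liver in neo-liver by 1.59 (adjusted p = 0.00655) and control liver by 2.29 (adjusted p = 0.000843). Cxcr1 differed by -2.03 in neo-liver against host liver (adjusted p = 0.00509) and was 2.08 higher in host liver than in control liver (adjusted p = 0.0148). Ccr3, the receptor of Ccl24, exceeded host kidney in neo-liver by 3.35 (adjusted p = 3.35e-05). Ccr1 and Xcr1 were below background on all arrays.

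Of 5 atypical receptors, which bind chemokines without attracting cells, 3 were higher and 1 lower in neo-liver than in host kidney (all genes 23.2% and 29.4%). Against host liver 1 was higher and 1 lower (17.1% and 31%), and against control liver 3 were higher and 0 lower (20.4% and 29.7%). In host liver 3 were higher and 0 lower than in control liver (13.3% and 11.2%). Ackr3, which takes up Cxcl12, differed in neo-liver by 3.09 from host liver (adjusted p = 0.0041), 5.13 from control liver (adjusted p = 0.000154) and -2.02 from host kidney (adjusted p = 0.0339). The platelet chemokines Pf4 and Ppbp, not named by the symbol rule, exceeded control liver in neo-liver by 2.65 (adjusted p = 0.0016) and 1.72 (adjusted p = 0.0346), and in host liver by 2.29 (adjusted p = 0.0109) and 2.26 (adjusted p = 0.0195). Of 17 tested genes of inflammatory signalling, 10 were higher and 1 lower in neo-liver than in host kidney (all genes 23.2% and 29.4%). Against host liver 0 were higher and 4 lower (17.1% and 31%), and against control liver 7 were higher and 0 lower (20.4% and 29.7%). In host liver 5 were higher and 0 lower than in control liver (13.3% and 11.2%). Relb, an NF-κB subunit gene of this list, was 2.26 higher in neo-liver (adjusted p = 9.68e-05) and 2.02 higher in host liver (adjusted p = 0.00104) than in control liver. The other genes of the list, further NF-κB genes among them, are counted here without their values, and NF-κB activity was not measured.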

How the data were processed

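Cy3-labelled RNA of the 15 samples was hybridised to Agilent microarrays of 1 colour. Scanner files carry intensity values, made per the file headers and the submitters' processing notes with Agilent Feature Extraction 10.10.1.1, and their processed signal was already background-subtracted. The series matrix deposited by the authors holds log2 values with column medians of -3.73 to -3.35. The share of them within 0.01 of the log2 processed signal, once a constant was taken off, was 99.7% on the array where it was lowest, and a single probe (1) with an empty cell was dropped. The array was annotated on mouse build mm9, and symbols were matched through accessions to RefSeq GRCm38.p6, so no gene coordinates are given from the array. Of 42 symbols that the rule takes from RefSeq, 32 had a probe.

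Spots of 1 probe were averaged, which gave 55681 probes. Control spots (3671 per array) were left out. The values are log2 processed signals minus the 75th percentile of the array. Kept probes had to be well above background in all samples of some group, as the scanner calls it, which left 34992 probes, 20385 of them with a symbol. The brightest kept probe stood for a gene, which gave 15618 genes, 4002 of them with several kept probes. No spot was saturated (0 probes). Group means of all 15 arrays were estimated together in limma 3.58.1 (with R 4.3.3, statmod 1.5.0 and, to read files, the package data.table in version 1.17.8). The code was tested on simulated data, and p-values are two-sided. Where a gene was below background on all arrays of a group, a fold is a bound: each such array enters with the dimmest signal called above background there, or with the gene's own where that is brighter. Precision is limited by how many arrays there are and by signal over background.

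Residuals of the 3 host tissues correlated best within the same number in 12 of 12 cases (r across genes 0.176 to 0.576), so numbers were used as mice in blocked fits (residual correlation 0.347 within mice, 0.0369 within slides). Nothing in the labels says which samples share a mouse. For the kidney share, 37 of 39 kidney epithelium markers were used, those with an 8-fold or larger excess of host kidney over control liver: the excess of an array over control liver was divided by the excess of host kidney, and the median taken as a percentage. To remove it, that share of the mean host kidney signal was subtracted from each neo-liver array and the rest divided by 1 minus the share; a remainder below the dimmest signal called above background on the array was set to that signal. Normexp used median spot and background signals with an offset of 50. Values are given for members called in at least 1 comparison, by role; values of the others, and the count of lowest arrays by number, were chosen after the values were seen. The members, the lists and the tests were chosen with earlier results of these data known. No probe sequence was used here. One receptor gene is not reported here.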

Additional observations from a re-analysis of the deposited data

Results flagged for a closer look

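Among 63 groups of 4 arrays, taken over the 21 tested chemokine genes and the 3 host tissues, 5 held an array past Dixon's critical value, with a gap to its nearest neighbour of 0.835 to 0.958 of the range of the group; chance gives about 1 in 20. Ccl4 on neo-liver array 2 was low, at -2.25, where the other neo-liver arrays stood at -0.58 to -0.26. Cx3cl1 on neo-liver array 1 was high, at 2.72, where the others stood at 1.90 to 1.93. Cxcl12 was high on neo-liver array 1, at 6.34, with the others at 5.98 to 6.03, and low on host kidney array 1, at 5.36, with the others at 5.66 to 5.68. Ccl28 on host liver array 3 was high, at -4.90, with the others at -5.53 to -5.42, and all 4 of these signals were below background.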

How the results depend on the processing

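Of 45 chemokine differences called, 22 were called in the same direction in every one of 12 other settings and 15 fits without 1 array, as far as each could be run, and 23 lost the call in at least 1. Of 39 not called, 9 were called in some setting. Beyond the calls named with the results above, mouse as a block changed no other call, and slide as a block none. Counts of called chemokine genes moved as follows. In neo-liver against host liver, genes called higher numbered 4 in place of 7 with normexp, with only the 2 groups in the fit and with the kidney share removed, and genes called lower numbered 2 in place of 4 with quantile normalization and 7 with no filter. In neo-liver against control liver, 2 in place of 4 were lower with the mean of the kept probes. In neo-liver against host kidney, 15 in place of 10 were higher with no filter. In host liver against control liver, 1 in place of 2 was lower with median centring, with the mean of the kept probes and with only the 2 groups. Without 1 array, genes called higher and lower ranged from 9 to 11 and 3 to 4 in neo-liver against host kidney, 6 to 8 and 3 to 4 against host liver, 8 to 12 and 3 to 4 against control liver, and 3 to 6 and 0 to 2 in host liver against control liver. Of differences called in either of the settings compared, the sign turned for 3: Ccl28 in neo-liver against host liver with normexp (-0.0094, adjusted p = 0.978), Ccl28 in neo-liver against control liver with the kidney share removed (-0.88, adjusted p = 0.049, a value set by the floor put under signals used up by the subtraction, not a measurement), and Ccl25 in host liver against control liver with the mean of its probes (0.11, adjusted p = 0.916). The sign also turned in some setting for 16 differences called in neither, such as Ccl9 in neo-liver against control liver. Calls were also lost for Cxcl16 in neo-liver against host liver with median centring (0.39, adjusted p = 0.0874) and with only the 2 groups (adjusted p = 0.0537), and for Ccl19 there with quantile normalization (adjusted p = 0.0603), median centring (adjusted p = 0.0638) and only the 2 groups (adjusted p = 0.0809). Quantile normalization moved the median difference of all genes in neo-liver against host liver to -0.07 from -0.21, and median centring moved it to -0.41, and to 0.22 from 0.07 in host liver against control liver. Over all genes, counts moved by more than 1.5 times for genes higher in neo-liver than in host kidney with no filter (5496 in place of 3621, of 20141 genes), lower than in host liver with quantile normalization (2573 in place of 4843), higher than in host liver with the kidney share removed (1742 in place of 2675), and in host liver against control liver for higher genes with median centring (3212 in place of 2077), only the 2 groups (1264) and without control liver array 1, 2 or 3 (1193, 1191 and 1246), and for lower genes without control liver array 1 or 2 (1069 and 1089 in place of 1756). The cause of these moves was not tested. Fits with no filter also call Ccl20, Ccl26 and Cxcl3, whose signals were below background on all arrays.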
